A study of Glycine max with 12 samples.

Results

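High temperature was examined in soybean pods (Glycine max, cultivar Magellan) as the difference between 6 heated and 6 unheated RNA sequencing libraries, which together make up all 12 libraries of the series. The heated libraries were chosen from the labels and comprise 3 of heat stress (days of 38 °C, nights of 28 °C, irrigation at 100% of the water that plants could transpire) and 3 of combined stress (the same temperatures, irrigation at 30%). The unheated libraries comprise 3 of water deficit (days of 28 °C, nights of 24 °C, irrigation at 30%) and 3 controls (the same temperatures, irrigation at 100%). Water supply was therefore balanced over both temperatures and was kept as a term in the fit.

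Plants of all 4 groups grew from seeds inoculated with Bradyrhizobium japonicum and were raised alike under 12 h of light, the last 16 to 18 days in pots, up to the opening of a first flower. From then on each group, formed at random, stood in a chamber of its own (4 in all), so that a group cannot be told apart from its chamber. The comparison of temperatures rests on 2 heated and 2 unheated chambers. Each library was made from 10 to 15 pods pooled from 8 to 10 plants, so replicates are pools of different plants that shared a chamber. A pod holds the fruit wall and the young seeds, and in such a bulk sample fewer cells of a type and less RNA per cell cannot be told apart.

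In plants, heat unfolds proteins, and heat stress transcription factors then switch on genes of heat shock proteins, the chaperones that hold or refold them. These genes are usually almost silent at mild temperature and reach high levels within a short time of warming. Heat also lowers many transcripts of growth and primary metabolism, and in soybean the flowers and young pods are among the organs most sensitive to it. The deposited tables list gene IDs without names, and 0 of their 57147 IDs matched the gene table at hand, so no ID is placed in any of these families here. For the same reason the label "pods" was not checked against marker genes, and lists of chaperone, hormone, clock or seed genes were not formed. IDs are printed as deposited.

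Total counts ranged from 17310023 to 23800510 in the heated libraries and from 17516340 to 26591115 in the unheated ones. A count of 3 corresponded to between 0.113 and 0.173 CPM (counts scaled to a common size of the library total), which is taken as the smallest level a library could show, for counting error alone. Water deficit replicate 2 stood apart. Of its genes with 6 to 65 counts, 87.5% had an even count, against 59.1 to 78.8% in the other 11 libraries, and 34370 IDs reached 10 counts in it, against at least 35524 in each of the others. Its part in the results was not tested beyond the counts given without it. In this range of counts, even counts outnumbered odd ones in all 12 libraries, and heat stress replicate 3 came next at 78.8%. The cause was not tested, and the level of 3 counts makes no allowance for it. Replicate libraries also spread more in 1 group at each temperature: the common biological coefficient of variation was 0.378 in heat stress and 0.256 in combined stress, against 0.246 in control and 0.431 in water deficit.

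Of 38737 IDs tested, 5198 differed between heated and unheated pods, or 13.4%, at an adjusted p under 0.05 (edgeR's quasi-likelihood test with Benjamini-Hochberg adjustment, 6 libraries a side). In heated pods, 2243 IDs were higher (5.79% of those tested) and 2955 were lower (7.63%). The median log2 change was 0.78 among the IDs called higher and -0.64 among those called lower, against 0.02 over all IDs tested. The water term of the same fit, 30% against 100% of the water, was called for 413 IDs (1.07%). Leaving out 1 library at a time gave between 3591 and 6322 calls for temperature, and 4674 without water deficit replicate 2. Of the 5198 calls, 2929 (56.3%) were made in the same direction in each of these 12 fits.

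The changes were unequal in size between the directions, as the plot of change against level shows. Falls were more numerous but mostly small, and large changes were mostly rises. At a change of at least 2-fold, 761 IDs were higher in heated pods and 470 were lower. At 16-fold or more the numbers were 96 higher and 17 lower, and at 64-fold or more 37 higher and 4 lower. Among the 18969 IDs with a mean of at least 10 CPM over the 12 libraries the directions were close at 2-fold or more, with 250 higher and 227 lower. In these IDs 64 were higher and 16 lower by 4-fold or more, and 31 were higher and 1 was lower by 16-fold or more. Rises outnumbered falls at the 2-fold, 4-fold and 16-fold limits in all 24 alternative settings tried, although falls outnumbered rises over all calls. Among these settings, the cut at an absolute log2 change of at least 1 repeats the main counts by construction. The cut at an adjusted p under 0.01 takes a part of the same fit. All 24 settings draw on the same 12 libraries, so they are not independent of each other.

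**Figure D1:**
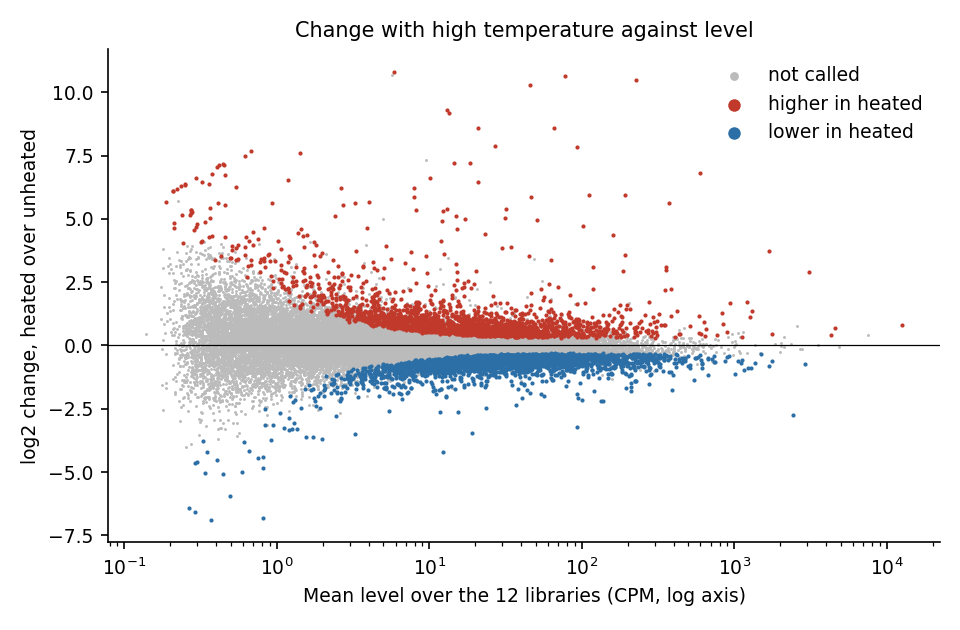
Each point is 1 ID, with its mean level over the 12 libraries in CPM on a log axis and its log2 change of heated over unheated pods. Red points were called higher and blue points lower in heated pods, grey points were not called. Beyond a log2 change of 4 lie 96 red and 17 blue points, of which 31 red points and 1 blue point have a mean of at least 10 CPM.

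**Figure D2:**
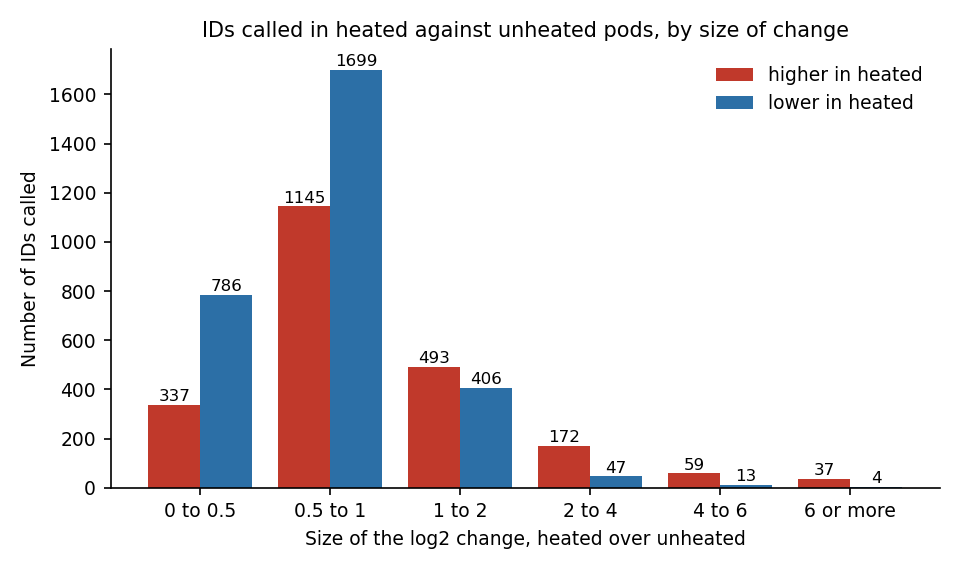
Number of IDs called higher (red) and lower (blue) in heated pods, by the size of their log2 change. Lower calls lead at a log2 change below 1 (1699 lower against 1145 higher between 0.5 and 1), and higher calls lead in each wider class, with 172 against 47 between 2 and 4.

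The share of IDs called differed with their level. Among the 1502 IDs with a mean of at least 100 CPM, 172 (11.5%) were called higher and 428 (28.5%) lower in heated pods. Between 10 and 100 CPM, 7.49% were higher and 11.8% lower, and between 1 and 10 CPM 4.58% were higher and 3.00% lower. Below 1 CPM the test had little to work with: the median standard error of the log2 change was 1.02 there, against 0.12 at 100 CPM and above, and 77 of 4797 IDs were higher and 22 lower. A missing call therefore says little for rare transcripts. For 20780 of the 33539 IDs not called (62.0%), the 95% interval of the log2 change lay within 1 in either direction, and for the remaining 12759 the interval reached a change of 2-fold or more.

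The libraries themselves separated well for many IDs. In 2380 IDs (6.14% of those tested) the 6 heated libraries did not overlap with the 6 unheated ones. These were 1090 IDs with every heated library above every unheated one (2.81%) and 1290 with every heated library below (3.33%). Of the 2243 IDs called higher, 984 (43.9%) separated in this way, and of the 2955 called lower 1197 (40.5%) did. At each water supply by itself there were 3 libraries a side, for which separation is easier to meet. At full water 3768 IDs had every heated library above (9.73%) and 3951 below (10.2%), and at 30% water 6732 were above (17.4%) and 6678 below (17.2%). Of the 38737 IDs tested, 1606 separated upward and 1999 downward in heated pods at both water supplies. Of these, 1335 and 1742 were called, where 5.79 and 7.63% of all IDs tested were called higher and lower. Calls and separation read the same libraries, so they are not independent. How many IDs would separate without any effect of heat was not computed.

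The strongest rises took transcripts from almost nothing to high levels. Described here are the 2 largest rises and 2 largest falls among IDs that were called, averaged 10 CPM or more, and separated all heated from all unheated libraries, which left 684 rises and 1049 falls. GLYMA_07G200500, on chromosome 7 by its ID, had 195, 78.3 and 145 CPM in heat stress and 172, 163 and 177 CPM in combined stress. It had 0.038, 0.31 and 0.18 CPM in control, which are 1, 6 and 4 counts, and 0 counts in each water deficit library. Every heated library thus lay more than 100 times above every unheated one, and combined stress replicates were close to each other while those of heat stress varied. The mean was 155 ± 41.0 CPM in heated pods and 0.088 ± 0.13 CPM in unheated pods (SD, n = 6 each), with a log2 change of 10.64 (SE 0.46, 95% interval 9.64 to 11.64, edgeR adjusted p = 2.34e-08). The unheated mean lies below the level of 3 counts, so the size of this change is not exact. It was 7.22 in limma on log2(FPKM + 1), 12.22 in the average over 4 group means and 11.48 without control replicate 2. The 1 added to FPKM holds down a change from near 0, so 7.22 is not a like estimate. At 30% water, where the unheated libraries held no counts, the combined stress mean was at least 1035-fold higher than a floor of 3 counts in each water deficit library. The deposited FPKM of water deficit replicate 3 was 0.065 despite 0 counts, so the FPKM values were not a plain rescaling of these counts.

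GLYMA_10G176400, on chromosome 10 by its ID, showed the same pattern at a higher level. It had 452, 237 and 319 CPM in heat stress and 571, 613 and 545 CPM in combined stress, against 0.038, 0.51 and 0.60 CPM in control and 0.26, 0 and 0.40 CPM in water deficit. All 3 combined stress libraries lay above the 3 of heat stress, yet the test of a difference between the temperature effects at both water supplies did not pass (log2 difference 1.48, edgeR adjusted p = 0.670). Its mean was 456 ± 150 CPM in heated pods and 0.30 ± 0.25 CPM in unheated pods (SD, n = 6 each), a log2 change of 10.49 (SE 0.47, 95% interval 9.46 to 11.53, edgeR adjusted p = 1.39e-07), and 8.51 in limma on log2(FPKM + 1). The authors' deposited FPKM values, which also account for gene length, ranged for this ID from 242 to 652 in heated libraries and from 0 to 0.42 in unheated ones.

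GLYMA_17G008500, on chromosome 17 by its ID, gave the largest fall under the same conditions. It had 2.65, 2.60 and 0.43 CPM in heat stress and 1.06, 0.88 and 0.32 CPM in combined stress, against 17.3, 20.3 and 31.8 CPM in control and 34.3, 14.1 and 21.1 CPM in water deficit. The heated libraries lay well below the unheated ones at each water supply, and they did not overlap, as the choice of IDs required. Its mean was 1.32 ± 1.04 CPM in heated pods and 23.1 ± 8.09 CPM in unheated pods (SD, n = 6 each), 17.5-fold lower in heated pods, with a log2 change of -4.22 (SE 0.46, edgeR adjusted p = 0.000113), or -3.53 in limma on log2(FPKM + 1).

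GLYMA_03G132700, on chromosome 3 by its ID, fell at both water supplies and further at the low one. It had 7.51, 6.25 and 11.2 CPM in heat stress and 0.35, 0.44 and 1.43 CPM in combined stress, against 57.6, 31.7 and 24.3 CPM in control and 30.8, 39.5 and 16.7 CPM in water deficit. Each heated library lay below each unheated one, as the choice of IDs required, and the combined stress libraries were the lowest of the 12. The log2 change over both water supplies was -3.45 (SE 0.64, edgeR adjusted p = 0.00720), or -2.81 in limma-voom. At full water it was -2.19 (SE 0.46, edgeR adjusted p = 0.0341) and at 30% water -5.22 (SE 0.56, edgeR adjusted p = 0.000139), but the difference between these changes did not pass the test (edgeR adjusted p = 0.137).

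**Figure D3:**
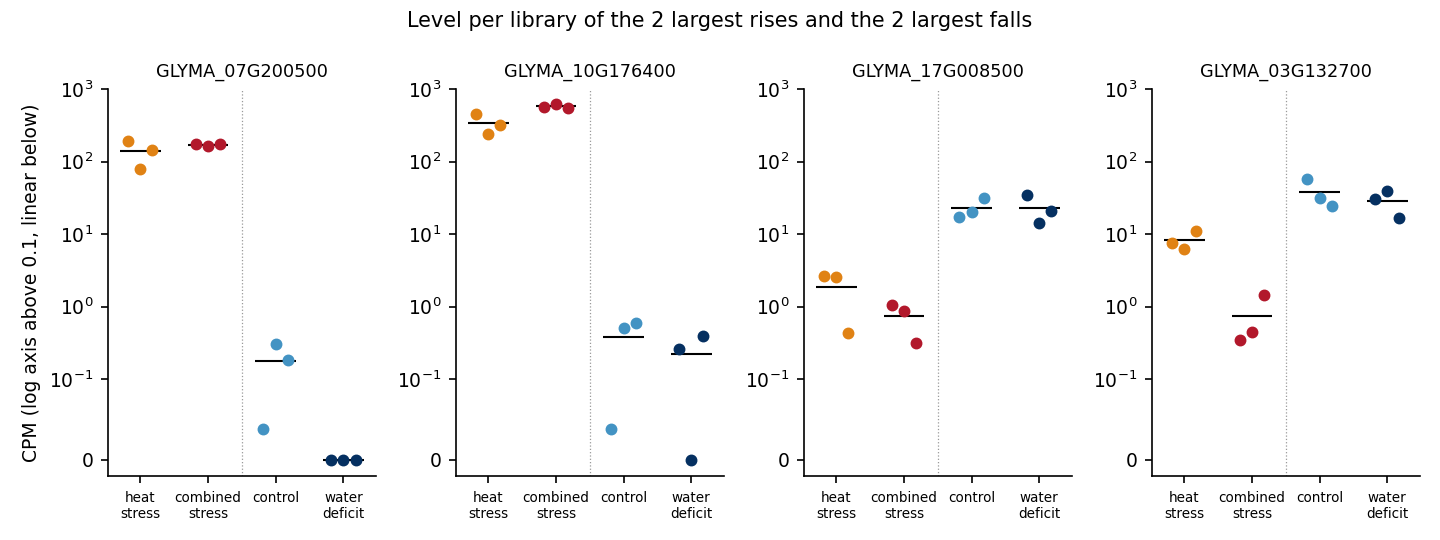
Level in CPM of 4 IDs in each library (points) with the group mean (line), on an axis that is logarithmic above 0.1 CPM and linear below. Groups left of the dotted line are heated. For GLYMA_07G200500 and GLYMA_10G176400 all 6 heated libraries lie above all 6 unheated ones, and for GLYMA_17G008500 and GLYMA_03G132700 they lie below. These IDs were chosen to separate in this way.

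Appearance from near silence was seen in one direction. With each of the 6 heated libraries at 10 CPM or more and each of the 6 unheated libraries below 1 CPM, there were 10 IDs, whose means in heated pods ran from 16.0 to 456 CPM with a median of 47.5 CPM. The reverse pattern, at 10 CPM or more in each unheated library and below 1 CPM in each heated one, was met by 0 IDs. These limits were set after the largest changes had been seen, and IDs chosen in this way had to differ, so the counts are a description. In 8 of the 10, the mean of combined stress was above that of heat stress, and in 5 the 3 combined stress libraries lay above the 3 of heat stress. The interaction test was passed by 0 of the 10, against 54 of all 38737 IDs tested (0.139%), so 0 of 10 says little. How often IDs in general had combined stress above heat stress in either way was not counted. The 8 and the 5 are therefore given without a comparison.

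Rises were also concentrated in fewer transcripts than falls. The 2243 IDs called higher took between 13.3 and 16.1% of the counts of a heated library, against 7.45 to 8.83% of an unheated one. The 2955 IDs called lower took 13.0 to 17.1% of the counts of a heated library and 21.7 to 23.9% of an unheated one. In summed mean CPM, the higher IDs came to 148880 in heated and 80043 in unheated pods, and 41 IDs accounted for 50% of that gain. The lower IDs came to 149335 in heated and 230475 in unheated pods, and 262 IDs were needed for 50% of that loss. The 10 IDs with the largest gains made up 34.0% of the gain, and the 10 with the largest losses 11.5% of the loss. These shares were computed over IDs chosen by the same contrast and are given as a description, with no test.

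**Figure D4:**
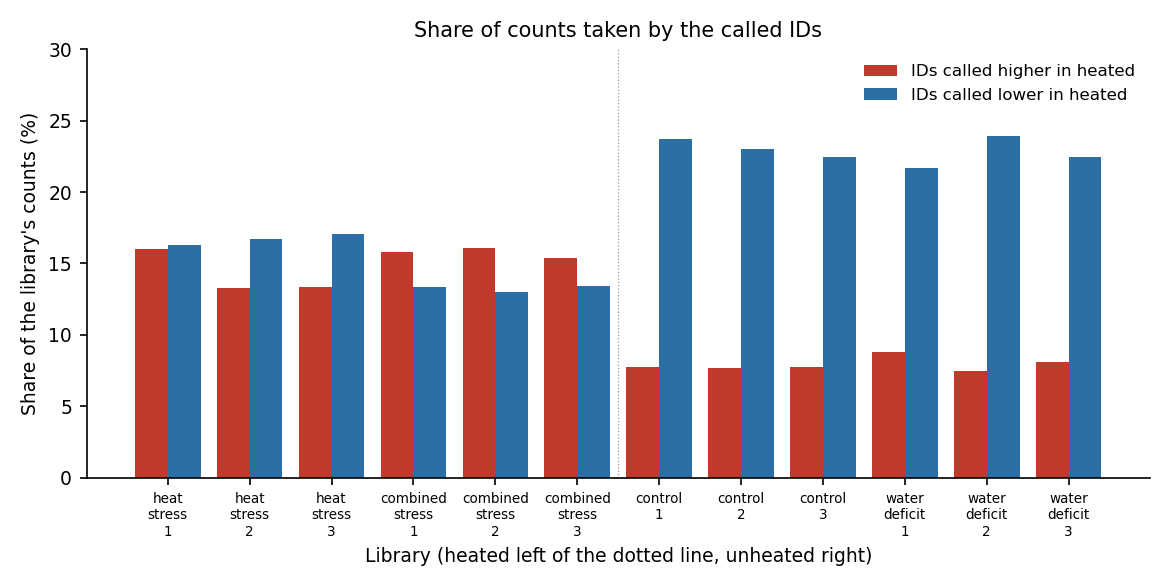
Share of each library's counts, in percent, taken by the 2243 IDs called higher (red) and the 2955 called lower (blue) in heated pods. Libraries left of the dotted line are heated. The red share lies between 13.3 and 16.1% in heated libraries and below 9% in unheated ones, and the blue share is above 21% in the unheated libraries alone.

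The largest gain in CPM was that of the most abundant transcript of heated pods. This ID held the most counts in all 6 heated and 4 of the 6 unheated libraries, and other IDs led in control replicates 2 and 3. It had 23847, 16104 and 15891 CPM in heat stress and 13602, 13327 and 13062 CPM in combined stress, against 9431, 6780 and 6191 CPM in control and 13023, 9456 and 10250 CPM in water deficit. The lowest heated library, at 13062 CPM, was barely above the highest unheated one, at 13023 CPM. Its log2 change was 0.80 (SE 0.19, edgeR adjusted p = 0.00849). A more than 100-fold rise also occurred at a high level: the ID seventh in order of gain averaged 1174 CPM in heated and 11.1 CPM in unheated pods, a log2 change of 6.81 (edgeR adjusted p = 1.77e-14).

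The effect of high temperature was next read at each water supply separately, in contrasts that share no library. At full water, heat stress against control, 734 IDs were called (1.89%), 438 higher (1.13%) and 296 lower (0.764%). At 30% water, combined stress against water deficit, 5207 were called (13.4%), 2034 higher (5.25%) and 3173 lower (8.19%). The scaling changed the last split. With library size alone, 2555 IDs were higher and 2539 lower at 30% water. Both counts also depended on single libraries. At full water there were 379 calls without control replicate 1, 265 without control replicate 2, 402 without control replicate 3 and 438 without heat stress replicate 3. At 30% water there were 3232 without combined stress replicate 1 and 3008 without combined stress replicate 2. Without water deficit replicate 2 there were 1022 calls at full water, although that contrast does not hold this library, and 3803 at 30% water. The highest count at 30% water was 6484, without heat stress replicate 1. The groups differed in spread, as given above, and a larger number of calls at one water supply does not by itself show a larger effect.

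IDs called at full water were mostly called at 30% water as well, but most IDs called at 30% water were not called at full water. Of the 438 higher at full water, 326 (74.4%) were also called higher at 30% water and 0 were called lower, where 5.25% of all IDs tested were called higher. Of the 296 lower, 227 (76.7%) were also called lower, and 1 was called higher, where 8.19% of all IDs were called lower. These contrasts came from 1 fit with a shared estimate of spread. With each water supply fitted from its own 6 libraries, 229 of 299 (76.6%) and 93 of 122 (76.2%) were called in the same direction and 0 in the opposite one, against 6.22 and 8.11% of all IDs. The median log2 change of the 438 IDs was 1.10 at full water, where they were chosen, and 1.06 at 30% water. For the 296 IDs it was -0.87 at full water and -0.98 at 30% water. In the other direction, 326 of the 2034 IDs higher at 30% water (16.0%) were called higher at full water, against 1.13% of all IDs tested. Of the 3173 lower at 30% water, 227 (7.15%) were called lower at full water, against 0.764%. The shares over all IDs include rare transcripts, few of which were called over both water supplies. They are therefore not matched for level.

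The same IDs were followed library by library at the other water supply. Those libraries were not in the contrast that chose the IDs, but they entered the scaling, the filter and the estimate of spread of the shared fit. The 438 IDs had a median log2 difference of 1.07, 1.04 and 1.06 in the 3 combined stress libraries, against 0.12, -0.09 and -0.01 in the 3 water deficit libraries, measured from the water deficit mean. The 296 IDs gave -0.91, -1.003 and -0.99 in combined stress and -0.02, 0.02 and -0.01 in water deficit. Heated and unheated libraries thus did not overlap on this measure. Water deficit replicate 2 lay with the other unheated libraries, but it enters the mean they are measured from, so this says little about that library. In the reverse direction, the 2034 IDs called higher at 30% water had medians of 0.47, 0.49 and 0.42 in heat stress and -0.07, 0.02 and 0.05 in control. The 3173 called lower had -0.28, -0.36 and -0.31 in heat stress and 0.06, -0.01 and -0.05 in control.

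**Figure D5:**
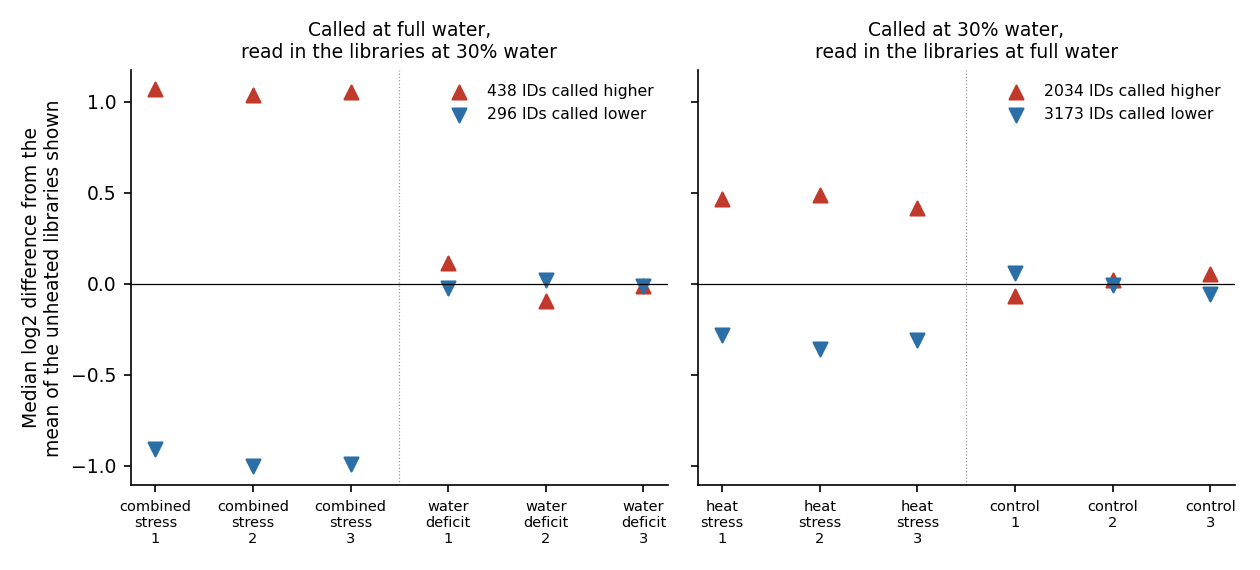
Median log2 difference from the mean of the unheated libraries shown, over IDs called at the other water supply, with upward red triangles for IDs called higher and downward blue triangles for IDs called lower. In the left panel the combined stress libraries lie between 1.04 and 1.07 for higher IDs and between -1.003 and -0.91 for lower ones, and in the right panel the heat stress libraries lie closer to 0, between 0.42 and 0.49 and between -0.36 and -0.28.

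The IDs called over both water supplies were also read at each, as a description, since that call averages the water supplies and so favours IDs with the same sign at both. The median log2 change of the higher IDs was 0.67 at full water and 0.90 at 30% water, and that of the lower IDs -0.46 and -0.81. The change was larger at 30% water for 1563 of the 2243 (69.7%) and for 2484 of the 2955 (84.1%). The test of the difference itself passed for few of them. Among the higher IDs, 4 had a larger and 1 a smaller rise at 30% water, and among the lower IDs 27 had a larger fall. Over all IDs tested, the difference was called for 54 (0.139%), 11 positive and 43 negative, or 10 positive and 11 negative when scaled by library size alone. In 11 of the 12 fits that left out 1 library this count moved by more than 1.5 times. It was 0 without control replicate 2, control replicate 3, water deficit replicate 3, heat stress replicate 3 or combined stress replicate 2, where edgeR gave at least 3034 IDs at an unadjusted p under 0.05. It was 5 without water deficit replicate 2 and 13 without combined stress replicate 1. It was 86 without heat stress replicate 1, 138 without control replicate 1, 146 without water deficit replicate 1 and between the first and second of these without heat stress replicate 2.

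A single ID was called in opposite directions at the 2 water supplies and is named for that reason, after its values were seen. GLYMA_15G002200, on chromosome 15 by its ID, had 1.37, 1.00 and 0.22 CPM in heat stress against 4.58, 4.88 and 4.81 CPM in control. In combined stress it had 16.1, 26.4 and 10.0 CPM, against 6.56, 2.64 and 3.44 CPM in water deficit. Heat stress libraries lay below all others and combined stress libraries above all others. The log2 change was -2.44 at full water (SE 0.50, edgeR adjusted p = 0.0157) and 2.05 at 30% water (SE 0.45, edgeR adjusted p = 0.00577), with a difference of 4.49 (edgeR adjusted p = 0.0166). The average over both water supplies was close to 0 (log2 change 0.01, SE 1.11), so the additive comparison did not call it. The change at full water did not pass at 0.01, nor at 0.05 in limma-voom (adjusted p = 0.173), limma on FPKM (adjusted p = 0.0745), the fit of heat stress and control alone (edgeR adjusted p = 0.0581), or without control replicate 2 (edgeR adjusted p = 0.0660) or 3 (edgeR adjusted p = 0.0502). The change at 30% water did not pass without combined stress replicate 2 (edgeR adjusted p = 0.0509). The difference of 4.49 did not pass at 0.01 or in limma on FPKM. Nor did it pass without control replicate 2, control replicate 3, water deficit replicate 3, heat stress replicate 3 or combined stress replicate 2. In those fits the difference was called for 0 IDs.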

How the data were processed

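The titles of the 12 RNA sequencing libraries gave their group and number. Read counts by gene ID and FPKM values (fragments scaled by gene length and library size) were deposited by the authors, in separate tables with 1 column per library, per the file headers. HISAT2 2.2.1 is listed in the submitters' processing notes. The counting tool, strand setting, annotation and genome build are not given in the sources used here, nor is the treatment of reads shared by near-identical copies, so levels of such genes are uncertain.

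Counts were tested with edgeR's quasi-likelihood method (edgeR 4.0.16, R 4.3.3), with temperature and water supply as additive terms, TMM factors (0.951 to 1.06), filterByExpr over the 4 groups (38737 of 57147 IDs kept) and Benjamini-Hochberg adjustment at 0.05. A fit of 4 group means gave the effect of heat at each water supply and their difference. CPM in the text uses TMM factors, and SEs of log2 changes were derived from the F statistic and are approximate. The fitted log2 change of an ID near 0 counts depends on the model's prior count. In limma on log2(FPKM + 1), the added 1 makes the change of an ID with low FPKM on 1 side smaller.

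IDs were named by rule as the 2 largest rises and 2 largest falls. The comparison, gene lists and alternatives were chosen with earlier results of these data known. The planned lists, promoter motif search and tissue markers were not used because 0 IDs matched the RefSeq table (assembly Glycine_max_v4.0). Alternatives used DESeq2 1.42.0 and limma 3.58.1, the latter also on log2(FPKM + 1). The additive edgeR, DESeq2 and limma-voom fits were tested on simulated counts.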

Additional observations from a re-analysis of the deposited data

Results flagged for a closer look

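In the unheated group, water deficit replicate 2 was far from the other libraries in the share of even counts among genes with 6 to 65 counts, at 87.5%. It was the single flag among 18 sets of 6 libraries examined, and chance flags about 1 in 20 such sets. Without this library, 4674 IDs were called between heated and unheated pods.

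The effect of heat differed between the water supplies for 54 IDs by the interaction test (edgeR adjusted p under 0.05), 11 positive and 43 negative. This count was 0 in some fits with 1 library left out and 3 with limma on FPKM. Of the positive differences 7 and of the negative ones 15 were not called between heated and unheated pods over both water supplies. Over all 38737 IDs tested, 33539 were not called there. GLYMA_15G002200 was among the 54, with a log2 difference of 4.49 (edgeR adjusted p = 0.0166).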

How the results depend on the processing

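The 5198 calls between heated and unheated pods stayed within 1.5 times in 10 of 12 alternative settings and in all 12 fits that left out 1 library (3591 to 6322). The exceptions were stricter thresholds by construction, with 2405 calls at an adjusted p under 0.01 and 1231 at an absolute log2 change of at least 1. DESeq2 called 6447 IDs and limma on FPKM 5769, of which 5187 and 4186 were among the 5198 in the same direction. At full water the 734 calls became 267 and 361 under those thresholds, 1454 with DESeq2 and 425 in the fit of heat stress and control alone, and ranged from 265 to 1022 with 1 library left out. At 30% water the 5207 calls became 2456 and 2189 under the thresholds and ranged from 3008 to 6484. The 54 interaction calls became 0 at an adjusted p under 0.01 (4107 IDs at an unadjusted p under 0.05 in edgeR), 21 with library size alone, 96 with no filter, 473 with DESeq2 and 3 with limma on FPKM. Of the 54, 21 were kept with library size alone, 53 with no filter, 54 with DESeq2 and 0 with limma on FPKM. With 1 library left out the interaction calls ranged from 0 to 146, with at least 3034 IDs at an unadjusted p under 0.05 in edgeR. The lower counts at the stricter thresholds follow by construction, and the cause of the other shifts was not tested.

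The 4 named rises and falls kept their direction and call in all 24 alternatives, which draw on the same 12 libraries. GLYMA_15G002200 kept its direction at both water supplies in 23 alternatives, but kept its call in 17 at full water and in 22 at 30% water. The stricter thresholds among these alternatives reuse the values of the main fit, so a direction could not change there. Replicate numbers paired nothing that the labels state, and deviations from group means of same-numbered libraries correlated from -0.219 to 0.142. With the replicate number as a block, 4570 IDs were called between heated and unheated pods, 599 at full water, 4711 at 30% water and 36 for the interaction.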

Other observations

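Called IDs lay on all 20 chromosomes that the IDs name. The share called higher in heated pods ran from 4.55% of tested IDs on chromosome 11 to 7.49% on chromosome 16. The share called lower ran from 6.45% on chromosome 16 to 8.94% on chromosome 11, so the same pair of chromosomes formed the ends of both ranges. On 18 of the 20 chromosomes more IDs were lower than higher. Of 87 tested IDs of the ENSRNA class, out of 1250 in the table, 1 was called higher (1.15%) and 0 lower (edgeR adjusted p under 0.05), against 5.79% higher and 7.63% lower over all IDs tested. The share called differed with level, as given above, and the levels of this class were not compared.

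IDs next to each other in the order of their numbers were called in the same direction slightly more often than IDs in general. Among the tested neighbours of IDs called higher, 7.75% were also called higher, against 5.80% of all tested IDs with a chromosome in their name. Among the neighbours of IDs called lower, 9.97% were also called lower, against 7.66%. The longest run of adjacent calls was 3 IDs for rises, met 16 times, and 4 IDs for falls, met 3 times. Near-identical neighbours can share reads, and the part of shared reads in these shares was not tested.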
